A study of Homo sapiens with 6 samples.

Results

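The 10 genes described here are 5 transcription factors that drive the epithelial-to-mesenchymal transition (EMT), namely ZEB1, ZEB2, SNAI1, SNAI2 and TWIST1, 4 regulators of the epithelial state, namely ESRP1, ESRP2, GRHL2 and OVOL2, and VIM, which encodes the filament protein vimentin. They were chosen by name, with earlier results of these data known, and each was found at 1 of the 74852 loci in the table of normalized gene expression. MDA-MB-231, an established human cell line of the triple-negative breast cancer (TNBC) subtype, was transfected in 2 rounds with non-targeting control siRNA (si-CTRL, 3 libraries) or with siRNA against SAM68 (si-SAM68, 3 libraries), and the sample labels place the harvest 24 h after the second transfection. The study's methods give a pool of siRNAs for each group. All 6 libraries are of mRNA from the same line, and the groups differ by the siRNA pool. The question addressed is how the RNA of EMT repressors and of their epithelial counterparts stood after depletion of Sam68, an RNA-binding protein and splicing regulator.

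EMT is the process by which epithelial cells lose their junctions and polarity and become motile. ZEB, SNAI and TWIST factors bind E-box sequences and repress epithelial genes such as CDH1, while GRHL2 and OVOL2 keep epithelial genes active and hold ZEB1 down, and ESRP1 and ESRP2 direct the epithelial pattern of alternative splicing. MDA-MB-231 is a mesenchymal-like line, in which vimentin and ZEB1 are known to be high and E-cadherin is known to be lost.

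The siRNAs that separate the groups are shown first, since a short siRNA can also act on transcripts that match only its seed (guide positions 2 to 8). Below is the strand listed by the study for each of the 4 SAM68 siRNAs, with the 7 bases that pair with the guide's seed in capitals. Among the protein-coding transcripts of GENCODE v29, all 19 bases of each were found only in KHDRBS1, the gene of Sam68.
siSAM68_1: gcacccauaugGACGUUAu
siSAM68_2: gaaagagcgagUGCUGAUa
siSAM68_3: uaugauggaugAUAUCUGu
siSAM68_4: aaagaucucugUAUUGGGa

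The 7-base matches of this pool were sought on the sense strand of the longest annotated 3′UTR per gene. At least 1 of them occurred in 3 of the 10 genes described here, and in 5046 of the 19382 genes with a 3′UTR (26.0%). ZEB1 held none, neither of the SAM68 pool nor of the control pool, and ESRP2 and VIM also held none. ZEB2 held 4 matches to siSAM68_3, beside 3 to siCTRL_3 and 2 to siCTRL_4. SNAI2 and ESRP1 each held 1 match to siSAM68_2, and ESRP1 also held 1 each to siCTRL_2, siCTRL_3 and siCTRL_4. Of the control pool alone, SNAI1 and TWIST1 each held 1 match to siCTRL_3, and GRHL2 held 3 to siCTRL_4. A match is a description of the sequence, and guides with mismatches, passenger strands and coding regions were not searched.

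The miRNAs of the miR-200 family and miR-205 are known to target ZEB1 and ZEB2, and their mature sequences (RefSeq, GRCh38.p14) are given with the seed in capitals. They fall into 3 seeds, of which miR-200b and miR-200c share 1 and miR-200a and miR-141 share another.
hsa-miR-200b-3p: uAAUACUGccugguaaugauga
hsa-miR-200c-3p: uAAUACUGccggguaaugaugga
hsa-miR-200a-3p: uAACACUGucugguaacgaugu
hsa-miR-141-3p: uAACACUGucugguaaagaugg
hsa-miR-205-5p: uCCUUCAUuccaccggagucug

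The 3′UTR of ZEB1 (2549 bases in GENCODE v29) held 6 matches to the seed of miR-200b and miR-200c, 3 to that of miR-200a and miR-141 and 1 to that of miR-205, and the 3′UTR of ZEB2 (5370 bases) held 5, 4 and 0. Over all genes with a 3′UTR, the respective shares with at least 1 match were 15.8%, 18.2% and 11.7%. One of the ZEB1 sites for miR-200b and miR-200c, at chr10:31527633-31527639 of GRCh38 on the plus strand, reads as follows with the match in capitals.
ZEB1 site: tttatcttatCAGTATTatcactctta
The loci of the miR-200a, miR-200b, miR-200c, miR-141 and miR-429 hairpins were at 0 in all 6 libraries, and that of MIR205 reached 1.94 normalized counts in a single library. An mRNA library does not capture mature miRNAs, so that these values say nothing of their levels.

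A normalized read count is the number of reads on a locus divided by the size factor of its library, and the libraries held between 52625492 and 82568487 reads. A value of 3 reads, used here as the limit that a count of 0 allows, corresponds to between 2.76 and 3.75 normalized counts and covers counting error only. KHDRBS1 (chr1:32479295-32526460, hg19) had 15660, 14483 and 14737 normalized counts in the si-CTRL libraries and 583, 602 and 670.2 in the si-SAM68 libraries, so that the label of each library held. An rRNA locus made up 15.1% of si-SAM68 replicate 2 and at most 3.17% of any other library. Leaving this library out gave 808 called loci in place of 2017. Dropping replicate 1 or 3 of the same group instead gave 923 and 625 called loci. A fall of this kind was thus not particular to replicate 2. Of the line's markers CD44, MSN, EGFR, KRT8 and the others listed, all 8 were detected, PGR was at 0, and CDH1 and EPCAM did not exceed 4.60 and 9.20 normalized counts in any library. Detection does not mean that the line's markers were unchanged, since 3 of the 8 were called higher in si-SAM68 cells and none lower (37.5%, beside 10.7% of all loci tested). The 6 leukocyte markers together reached at most 20.2 normalized counts. Of 7 fibroblast markers, COL1A1 was high in si-CTRL libraries (160257 ± 18683, SD, n = 3). PDGFRB was at 710 ± 62.2 there, and the locus that joins FIP1L1 with PDGFRA was at 4747 ± 905. COL1A2 and COL3A1 were at 39.0 and 34.7 in si-CTRL libraries, and DCN and LUM did not exceed 3.68 and 4.47 in any library. None of the 5 fibroblast markers tested was called. The labels do not say whether the replicates came from separate cultures, so that p-values measure the spread between these libraries, which may be technical.

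To compare levels between genes, counts were divided by the length of all exons of a gene together (in kb, GENCODE v29). On this scale VIM was at 84188 ± 7693 per kb in si-CTRL cells (SD, n = 3), far above every regulator. ZEB1 followed with 799.7 ± 118.5 and SNAI2 with 508 ± 132, and their si-CTRL libraries did not overlap. ZEB2 (180.5 ± 44.0), TWIST1 (175 ± 32.5) and SNAI1 (123 ± 43.6) formed the next step and could not be ordered within their spread. ESRP2 was at 69.1 ± 6.46 per kb, below each si-CTRL library of SNAI1. ESRP1, GRHL2 and OVOL2 were at or near 0. In si-SAM68 cells the means per kb were 76137 for VIM, 515.0 for ZEB1, 394 for SNAI2, 156 for ZEB2, 138 for TWIST1, 106 for SNAI1 and 50.8 for ESRP2, which is the same order.

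**Figure D1:**
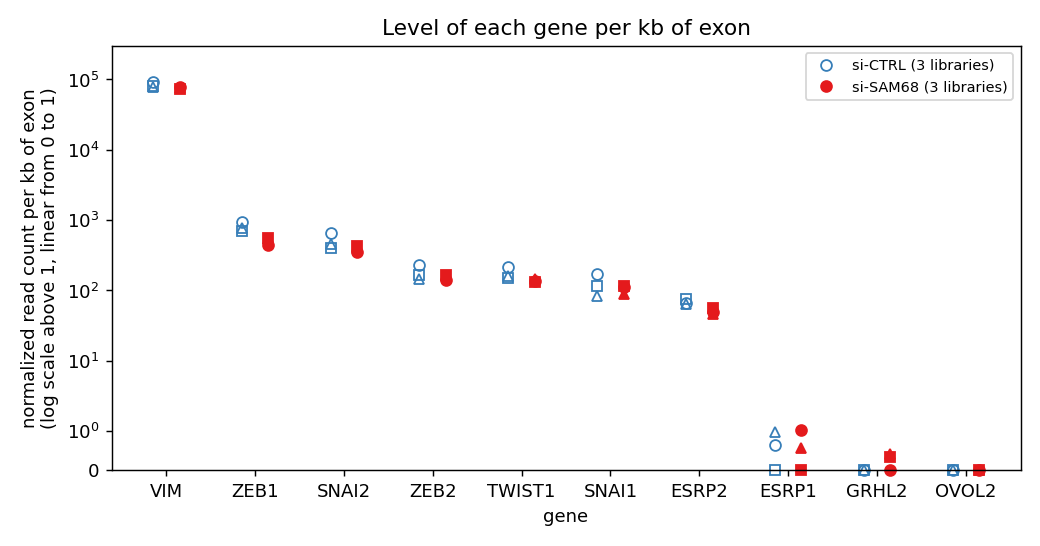
Normalized read count per kb of exon (log scale above 1) of the 10 genes, with each library as a point, open for si-CTRL and filled for si-SAM68. VIM lies at 74037 per kb or above in every library, the other 6 tested genes lie between 46.6 and 930.5, and ESRP1, GRHL2 and OVOL2 lie at or near 0.

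The mean of 10 normalized counts over the 6 libraries that was needed for a test was reached by 7 of the 10 genes, the exceptions being ESRP1, GRHL2 and OVOL2. Of the 7, ZEB1 fell in si-SAM68 cells, and no gene rose (limma, adjusted p under 0.05 over all 18849 loci tested). Among all loci tested, 6.23% were called lower and 10.7% in either direction, so that 1 call among 7 genes is near the background. On the limma values, ZEB1 was also the only one of the 7 to pass the thresholds of the study (unadjusted p ≤0.05 and fold change ≥1.5). Of all loci, 7.67% passed them, 4.83% as lower. The study applied these thresholds to its own analysis, and whether ZEB1 is among its regulated genes was not checked. An unadjusted p of at most 0.05 was reached by ZEB1, ESRP2 and TWIST1, against 27.0% of all loci. These 3 genes were also those whose groups did not overlap, which held for 33.9% of all loci (17.3% with the lower values in si-SAM68). The log2 fold change was below 0 for all 7, with a median of -0.33, while it was below 0 for 49.1% of all loci and their median was 0.005. Less RNA per cell and fewer cells of a kind cannot be told apart in such bulk samples.

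ZEB1 (locus GSHG0003289, chr10:31607423-31818742, hg19) encodes a zinc-finger repressor of CDH1 and of the miR-200 genes. Its normalized counts were 5988, 4503 and 4947 in the si-CTRL libraries, replicates 1 to 3, whereas the si-SAM68 libraries had 2871, 3547 and 3523. Each si-SAM68 library lay below each si-CTRL library. The mean went from 5146 ± 762.3 to 3314 ± 384 (SD, n = 3), which left 64.4% of the si-CTRL level. The log2 fold change was -0.63 (standard error 0.121, 95% interval -0.90 to -0.36, adjusted p = 0.0118 from limma), which ranked 1005 from the lowest of the 18849 loci. Without si-SAM68 replicate 1, the lowest library, it was -0.53 and the call was lost (adjusted p = 0.0521, limma), while the adjusted p was at most 0.0489 (limma) when any other library was left out. With the replicate number as a block it was 0.033 (limma). The two-sided exact permutation p was 0.1, the smallest that 3 libraries against 3 allow.

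ZEB2, the paralog of ZEB1, (locus GSHG0045821, chr2:145141942-145277958) had 3068, 2225 and 1938 normalized counts in the si-CTRL libraries and 1887, 2187 and 2182 in the si-SAM68 libraries. The groups overlapped, and the highest value was that of si-CTRL replicate 1. The difference was -0.19 on the log2 scale with a 95% interval from -0.52 to 0.15 (adjusted p = 0.468, limma), which overlaps with that of ZEB1, and the difference between the genes was not tested. Without si-CTRL replicate 1 the log2 fold change was 0.0026, and without si-CTRL replicate 3 it was -0.33. As values within each library, ZEB2 stood at 24.7, 23.8 and 18.9 per 100 of ZEB1 (both per kb) in the si-CTRL libraries, and at 31.7, 29.7 and 29.8 in the si-SAM68 libraries. These ratios rest on the counts just given and are a description of them.

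SNAI1 encodes Snail, a short-lived repressor that is controlled largely through the stability of its protein. At its locus (GSHG0018825, chr20:48599513-48605418) the libraries had 287, 194 and 143 normalized counts in si-CTRL cells and 187, 198 and 149 in si-SAM68 cells. All si-SAM68 values lay within the range of the si-CTRL values, whose highest was that of si-CTRL replicate 1. The si-CTRL libraries alone varied by 35.3% (SD as a share of the mean). The log2 fold change was -0.18 (95% interval -0.70 to 0.35, adjusted p = 0.675, limma), an interval that spans both a decrease as large as that of ZEB1 and an increase. It turned to 0.087 without si-CTRL replicate 1 and was -0.42 without si-CTRL replicate 3.

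SNAI2 encodes Slug, the Snail relative that is typical of basal-like and mesenchymal breast cells. Its locus (GSHG0029565, chr8:49830236-49834921) had 1596, 991 and 1114 normalized counts in si-CTRL libraries and 849, 1055 and 968 in si-SAM68 libraries. The lowest si-CTRL library lay below the highest si-SAM68 library. On the log2 scale the difference was -0.34 (95% interval -0.71 to 0.027, adjusted p = 0.217, limma), and -0.14 without si-CTRL replicate 1.

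TWIST1 encodes a basic helix-loop-helix factor that can induce EMT and migration. Its locus (GSHG0028033, chr7:19155091-19157295) had 354, 253 and 269 normalized counts in si-CTRL libraries and 228, 220 and 240.2 in si-SAM68 libraries, without overlap between the groups. Its log2 fold change was -0.33 (95% interval -0.66 to -0.0049, unadjusted p = 0.0473, adjusted p = 0.180, both from limma), which did not pass the test over all loci. Without si-CTRL replicate 1 it was -0.19 (adjusted p = 0.363, limma). The SD was 4.47% of the mean in the si-SAM68 libraries and 18.6% in the si-CTRL libraries.

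**Figure D2:**
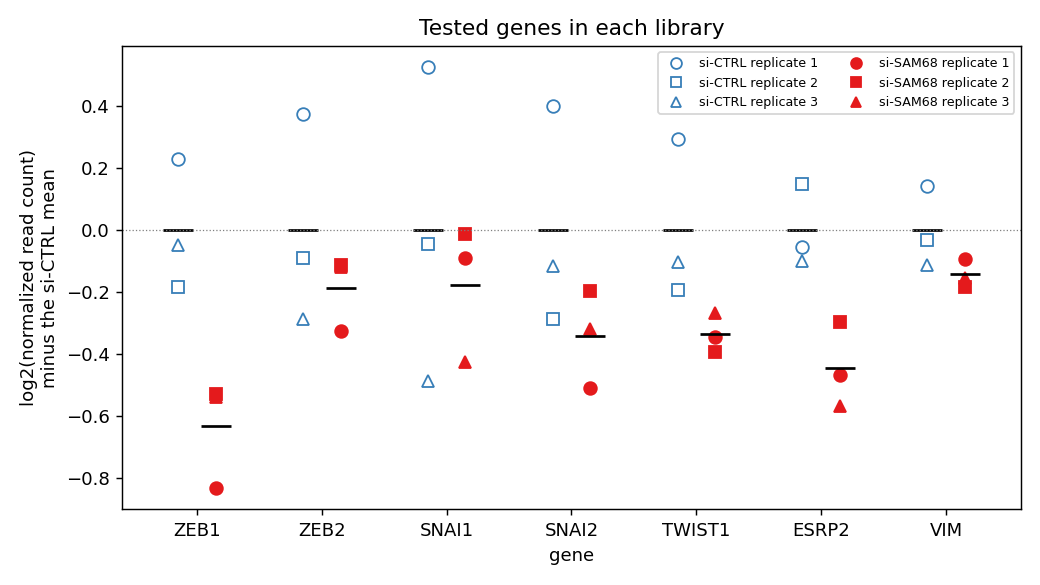
Each of the 7 tested genes in each library, as log2 of the normalized read count minus the mean of the si-CTRL libraries (bars are group means, open symbols si-CTRL, filled symbols si-SAM68, shapes the replicate numbers). si-CTRL replicate 1 is the highest library for 6 of the 7 genes, and the groups are separate for ZEB1, TWIST1 and ESRP2.

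Among the regulators of the epithelial state, ESRP2 was the one with enough reads for a test, and it was lower, not higher, in each si-SAM68 library. Its locus (GSHG0011930, chr16:68262450-68270487, which also holds MIR6773) had 255, 293 and 247 normalized counts in si-CTRL libraries and 191, 215 and 179 in si-SAM68 libraries. The mean went from 265 ± 24.8 to 195 ± 18.5 (SD, n = 3). The log2 fold change was -0.44 (standard error 0.133, 95% interval -0.74 to -0.14), with an unadjusted p of 0.00801 and an adjusted p of 0.063 (limma), short of the threshold. The two-sided exact permutation p was 0.1, and the log2 fold change stayed between -0.51 and -0.37 with each library left out in turn. In contrast to the EMT factors, si-CTRL replicate 1 was not its highest library.

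The ESRP2 locus shares 712 bases of its span with NFATC3, whose mean was 18.6 times as high. How strand was used in counting is not given in the sources used here, so that reads in the shared stretch cannot be assigned with certainty. NFATC3 had 4451 ± 502 and 4131 ± 341 normalized counts (SD, n = 3), a log2 fold change of -0.11 (adjusted p = 0.538, limma) with overlap between the groups.

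ESRP1, the close relative of ESRP2 and the more epithelium-restricted splicing factor, had 2, 0 and 4 reads in the si-CTRL libraries and 4, 0 and 2 in the si-SAM68 libraries at its locus (chr8:95653302-95719694). GRHL2, a grainyhead-like activator of junction genes (chr8:102504666-102681954), had no read in the si-CTRL libraries and 0, 2 and 2 reads in the si-SAM68 libraries. OVOL2, a zinc-finger repressor of ZEB1 (chr20:17998078-18039832), had no read in any library, or 0 of 396635406 reads. These counts lie at or near the limit of 3 reads in both groups, so that no fold change is given, and a difference was not detectable at this depth. The 5 EMT factors, on the other hand, had between 1114 and 24504 reads over the 6 libraries.

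Set against each other, the repressors and the 1 measurable epithelial regulator had differences of the same sign. The 5 EMT factors had log2 fold changes from -0.63 to -0.18 with a median of -0.33, beside -0.44 for ESRP2. Without si-CTRL replicate 1 the median of the 5 was -0.14, ZEB2 and SNAI1 were above 0, and ESRP2 was at -0.47. ESRP2 stood at 7.14, 10.9 and 8.38 per 100 of ZEB1 (both per kb) in the si-CTRL libraries, and at 11.2, 10.2 and 8.51 in the si-SAM68 libraries. These ratios overlapped between the groups.

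VIM, the gene of the intermediate filament that marks mesenchymal cells, lies at chr10:17270258-17279592 (locus GSHG0003222). It had 173162, 153431 and 145198 normalized counts in si-CTRL libraries and 147268, 138300 and 141102 in si-SAM68 libraries. si-SAM68 replicate 1 lay above si-CTRL replicate 3, so that the groups overlapped. VIM had a log2 fold change of -0.14 (95% interval -0.34 to 0.055, adjusted p = 0.333, limma). With at least 126315 reads per library at this locus, counting error was negligible beside the spread between libraries. Without si-CTRL replicate 1 the log2 fold change was -0.070.

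**Figure D3:**
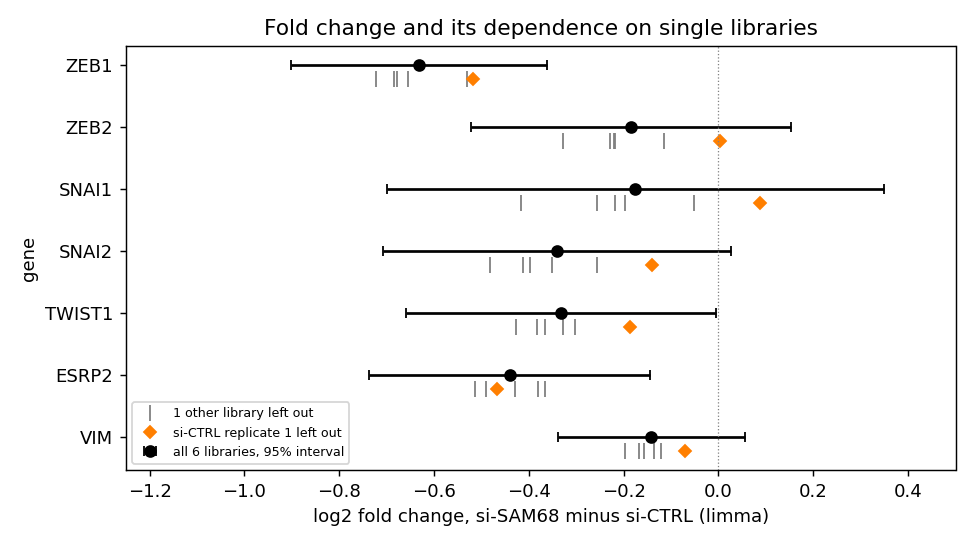
log2 fold change (si-SAM68 minus si-CTRL, limma) of the 7 tested genes with its 95% interval (black), and the same with 1 library left out (grey ticks, orange diamonds for si-CTRL replicate 1). The intervals of ZEB1, TWIST1 and ESRP2 lie below 0, and the diamonds of ZEB2 and SNAI1 lie at 0.0026 and 0.087.

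A library that stood apart on these genes was si-CTRL replicate 1. Relative to the mean of si-CTRL replicates 2 and 3, it was higher by between 0.34 and 0.79 on the log2 scale for the 5 EMT factors and by 0.21 for VIM, and lower for ESRP2 (-0.079). Over all loci tested, the median of this difference was -4.5e-05 and the middle of the distribution ran from -0.24 to 0.21 (quartiles). This library was the highest of the 6 for 6 of the 7 genes, and for 27.5% of all loci. Without it, ZEB1 kept its call (log2 fold change -0.52, adjusted p = 0.00476, limma), ZEB2 and SNAI1 no longer lay below 0, and SNAI2, TWIST1 and VIM were nearer to 0. Its part in the lower means of si-SAM68 cells was not tested further. Against the other libraries of its own group, si-SAM68 replicate 2 lay above the upper quartile of all loci for 5 of the 7 genes, beside 6 for si-CTRL replicate 1. The median of the 7 genes in this comparison was 0.16 for si-SAM68 replicate 2 and 0.44 for si-CTRL replicate 1.

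**Figure D4:**
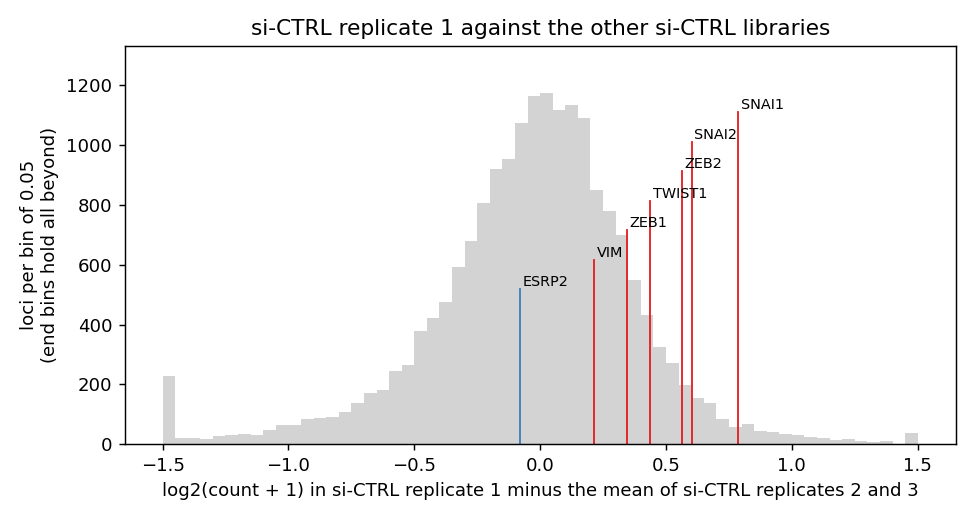
Distribution over the 18849 loci tested of log2(count + 1) in si-CTRL replicate 1 minus the mean of si-CTRL replicates 2 and 3 (grey, end bins hold all loci beyond), with the 7 tested genes as lines. The 5 EMT factors lie between 0.34 and 0.79, above 85.9% to 98.0% of the loci, and ESRP2 lies at -0.079.

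Transcripts antisense to these genes are listed as loci of their own. ZEB1-AS1, which shares 602 bases of its span with ZEB1, went from 756.5 ± 91.0 to 602.0 ± 34.0 normalized counts (SD, n = 3), a log2 fold change of -0.32 (adjusted p = 0.0944, limma), and it amounted to 0.161 times the mean of ZEB1. VIM-AS1, which shares 1727 bases of its span with VIM, went from 296 ± 40.9 to 207 ± 26.0, a log2 fold change of -0.51 (adjusted p = 0.0526, limma). Its mean was 0.00168 times that of VIM. Since the use of strand in counting is not given, reads in these shared stretches cannot be assigned with certainty. For both antisense transcripts, no si-SAM68 library overlapped with a si-CTRL library, and neither passed the test. VIM-AS1 did pass it with the replicate block (adjusted p = 0.0413, limma), with a minimum mean of 50 (0.0441), with DESeq2 (0.0208) and without si-CTRL replicate 1 (0.0322). It did not pass without the trend in eBayes, nor when any other library was left out (adjusted p between 0.0641 and 0.173, limma). ZEB2-AS1 had at most 3.80 normalized counts in any library.

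The genes around these regulators were grouped in lists, for which 10.7% called over all loci and a median log2 fold change of 0.005 are the values to compare with. The lists were chosen with earlier results of these data known, so that their shares are a description and no independent test. Among other transcription factors associated with EMT, 14 of 17 were tested, 3 fell and none rose, with a median of -0.14. FOXC1, a forkhead factor of mesenchymal breast cancers, went from 1827 ± 284 to 1037 ± 84.5 normalized counts (log2 fold change -0.81, adjusted p = 0.00361, limma), and FOXC2, its relative, from 462 ± 166 to 240.3 ± 22.1 (log2 fold change -0.89, adjusted p = 0.0269, limma). HMGA2, a chromatin protein that acts upstream of SNAI and TWIST genes, went from 17442 ± 2423 to 10079 ± 2032 (log2 fold change -0.80, adjusted p = 0.0107, limma). Among other epithelial transcription factors, 13 of 17 were tested, 3 fell and 1 rose. TFAP2C, KLF4 and EHF had log2 fold changes of -0.87, -0.56 and -1.03 (adjusted p = 0.00209, 0.0259 and 0.0293, limma), whereas FOXA1, a luminal pioneer factor, rose from 826 ± 34.7 to 1295 ± 108 (log2 fold change 0.64, adjusted p = 0.00351, limma). Factors of both kinds were thus among the genes that fell. With each library left out in turn, FOXC1, HMGA2, TFAP2C and FOXA1 were called every time, whereas FOXC2, KLF4 and EHF were not called without any one of the si-SAM68 libraries, nor KLF4 and EHF without si-CTRL replicate 3. The medians of both lists then ran from -0.25 to -0.020 and from -0.18 to 0.059, the highest without si-CTRL replicate 1.

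Of 31 epithelial genes known to be repressed by ZEB or SNAI factors, 22 were tested, and 11 rose and none fell (50% called). Their median log2 fold change was 0.40, with 19 of the 22 above 0. This list, too, was chosen with earlier results of these data known, so that its share called is no independent test. PATJ, a polarity protein of the tight junction, went from 851 ± 84.5 to 1536 ± 6.60 normalized counts (log2 fold change 0.86, adjusted p = 0.000935, limma). PKP2, a desmosomal plaque protein, and OCLN, the tight junction protein occludin, had log2 fold changes of 0.82 and 0.49 (adjusted p = 0.00419 and 0.0135, limma). CDS1, an enzyme of phospholipid synthesis, went from 60.4 ± 21.9 to 162 ± 10.5 (log2 fold change 1.46, adjusted p = 0.00569, limma), and the other 7 that rose had log2 fold changes between 0.31 and 1.14.

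CDH1 and EPCAM, the textbook targets of ZEB1 in this list, stayed below 10 normalized counts in every library. CDH1 had 0, 3.87 and 0.951 normalized counts in si-CTRL libraries and 2.01, 4.60 and 4.47 in si-SAM68 libraries. EPCAM had 2.50, 2.91 and 1.90 in si-CTRL libraries and 3.02, 9.20 and 8.94 in si-SAM68 libraries. Its groups did not overlap, as was so for 33.9% of all loci tested, while those of CDH1 did. Both were left out of the test by the minimum. The count of 11 depended on the libraries and the fit, being 6 with the replicate block, 11 without si-CTRL replicate 1, 7 and 6 without si-CTRL replicates 2 and 3, and 5, 3 and 3 without si-SAM68 replicates 1, 2 and 3. PATJ, PKP2 and CDS1 were called each time, OCLN was not without si-SAM68 replicate 2 or 3, and the median stayed between 0.38 and 0.43 with each library left out. The summed normalized counts of 8 luminal markers were between 2619 and 2931 in si-CTRL and between 3509 and 3745 in si-SAM68 libraries. FOXA1 and KRT19 carried this sum and rose, and KRT19 is also 1 of the 11 epithelial genes. The locus listed as KRT19 is wide (chr17:39679870-39942964, hg19), and what else its counts may hold was not examined. GATA3 had 427 ± 107 and 384 ± 27.0 (log2 fold change -0.13, adjusted p = 0.669, limma), AGR2 had at most 2.50, ESR1 at most 15.2, and PGR was at 0. Their part in the list was not tested.

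**Figure D5:**
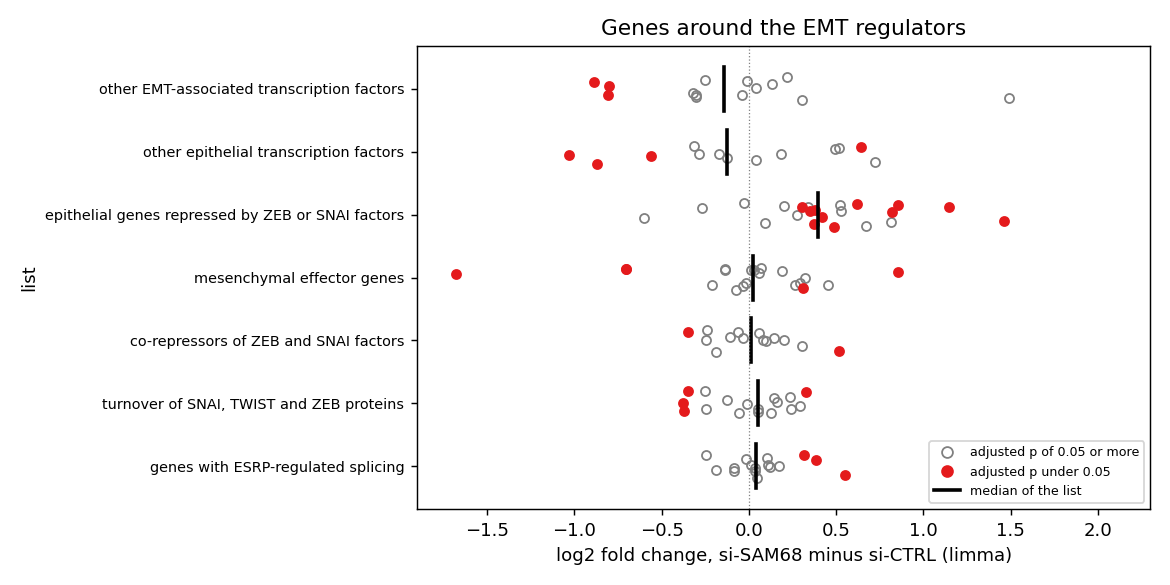
log2 fold change (si-SAM68 minus si-CTRL, limma) of the tested genes of 7 lists, 1 point per gene, filled where the adjusted p was under 0.05, with the median of the list as a bar. The list of epithelial genes has its median at 0.40 and 11 filled points above 0, and the medians of the other lists plotted lie between -0.14 and 0.050. The lists were chosen with earlier results of these data known.

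Mesenchymal effector genes did not move as 1 group, with 20 of 21 tested, 2 that rose, 3 that fell and a median of 0.022. CDH11, a mesenchymal cadherin, went from 955 ± 162 to 296 ± 33.4 normalized counts (log2 fold change -1.68, adjusted p = 0.00025, limma). THY1 and ACTA2, markers of fibroblast-like cells, had log2 fold changes of -0.70 and -0.70 (adjusted p = 0.00288 and 0.0183, limma). CDH2, which encodes N-cadherin, the cadherin gained in EMT, went the other way, from 24247 ± 2412 to 29954 ± 769.7 (log2 fold change 0.31, adjusted p = 0.0447, limma), as did S100A4 (log2 fold change 0.86, adjusted p = 0.0395, limma). Both calls were lost when any si-SAM68 library was left out (0 genes higher and 2 lower each time) and with the replicate block (0 higher and 3 lower), where the adjusted p was 0.0592 for CDH2 and 0.052 for S100A4 (limma). CDH2 was also not called without si-CTRL replicate 2 or 3, nor ACTA2 without any one of the si-SAM68 libraries. FN1, the gene of fibronectin, had 167541 ± 19258 and 190530 ± 18010 normalized counts and was not called (log2 fold change 0.19, adjusted p = 0.298, limma).

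Of the remaining lists, 14.3% of the co-repressors, 23.5% of the genes for protein turnover and 18.8% of the genes with ESRP-regulated splicing were called, beside 10.7% of all loci. Of 14 co-repressors, all of them tested, CTBP1, which ZEB1 binds directly, fell (log2 fold change -0.35, adjusted p = 0.0401, limma), and the locus that joins AJUBA with HAUS4 rose (log2 fold change 0.51, adjusted p = 0.0114, limma). Of 17 genes for the turnover of SNAI, TWIST and ZEB proteins, BTRC, a ubiquitin ligase subunit for Snail, rose (log2 fold change 0.33, adjusted p = 0.0242, limma). FBXL14, LATS2 and FBXO45 fell, with log2 fold changes of -0.37, -0.35 and -0.37 (adjusted p = 0.0336, 0.037 and 0.0427, limma). With the replicate block the turnover list had 2 genes higher and 1 lower, and FBXL14 and LATS2 lost their calls (adjusted p = 0.0602 and 0.0607, limma). Of 16 genes whose splicing is regulated by ESRP proteins, 3 rose at the level of the whole gene and none fell. Among them were the locus that joins CTNND1 with TMX2 (log2 fold change 0.55, adjusted p = 0.00207, limma) and RALGPS2 (log2 fold change 0.38, adjusted p = 0.0226, limma). Single exons were not analysed here. The locus that joins CTNND1 with TMX2 was called with each library left out in turn (adjusted p at most 0.0198, limma). The other calls were fragile. With 1 library left out the counts went from 0 to 4 for the co-repressors, from 0 to 6 for the turnover genes and from 1 to 5 for the splicing genes, each time with the most calls without si-CTRL replicate 1. For the turnover genes none was called when any other library was left out.

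The loci whose pattern over the 6 libraries was most like that of ZEB1, by Pearson correlation of log2 values among 12928 loci with a symbol and a mean of at least 50, were PLXNA2 (r = 0.997), MAP4K4 (r = 0.996) and DOCK4 (r = 0.996). Such values are a description over 6 points that share the group difference, and 297 loci had an r above 0.95. The log2 fold changes of the 3 loci were -0.84, -0.74 and -0.94.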

How the data were processed

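MDA-MB-231 libraries were grouped by the sample labels (si-CTRL and si-SAM68, 3 each). Per the labels and methods, the deposited signal is the read count of each FAST DB locus (hg19) divided by a DESeq2 size factor. The submitters' processing notes name STAR 2.4.0, SAMtools, Picard, FastQC and DESeq2, while the counting program and its use of strand are not given in the sources used here. All values were whole multiples of 1 step per library (within 0.01), and the multiples were used as reads.

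limma 3.58.1 (R 4.3.3, eBayes with a trend) was run on log2(normalized read count + 1) over 18849 loci (minimum mean 10), a scale that understates the fold change of low genes. The Benjamini-Hochberg adjustment covered all these loci. Named genes are the 10 genes, KHDRBS1, up to 4 called genes per list and direction, CDH1, EPCAM, CDH2 and FN1, and the 3 loci most like ZEB1, except 1 called gene that is not reported here. ZEB1-AS1, VIM-AS1, ZEB2-AS1, NFATC3 and luminal and fibroblast markers were named after their values were seen. The genes and lists were chosen with earlier results of these data known. Same-numbered libraries deviated together (correlations of 0.105, 0.231 and 0.125, against -0.125 to 0.0069 between other numbers), so that a fit with the replicate block was made. Other alternatives were other pseudocounts, filters, scalings and trends, edgeR 4.0.16 and DESeq2 1.42.0 on the reads, and each library left out. edgeR called 2026 loci and DESeq2 2789. The programs were tested on simulated counts that had no replicate effect and planted changes larger than those of the tested genes among the 10. That test does not show how changes of their size are recovered.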

Additional observations from a re-analysis of the deposited data

How the results depend on the processing

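Of the 7 genes tested, ZEB1 was called in all settings but 2. Without the trend in eBayes its log2 fold change of -0.63 had an adjusted p of 0.0664 (limma), so that 0 of the 7 genes were called, and 2 had an unadjusted p of at most 0.05. With 1 library left out, between 0 and 1 gene was called, and the log2 fold change of ZEB1 was between -0.72 and -0.52. Leaving out single libraries moved ZEB2 between -0.33 and 0.0026 and SNAI1 between -0.42 and 0.087, the upper values being those without si-CTRL replicate 1. The other genes kept their sign and stayed without a call in every setting, with adjusted p-values of ESRP2 between 0.0519 and 0.212 (limma, edgeR or DESeq2).

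The number of all loci called was 899 (550 of them lower) without the trend and went from 625 without si-SAM68 replicate 3 to 2839 without si-CTRL replicate 1 (402 to 1517 lower), against 2017 (1175 lower). Over the lists, 32 loci were called, 20 with no filter, 12 without the trend, and between 10 and 43 with 1 library left out. With the replicate block, 1697 of all loci and 26 of the lists were called. The block changed no call among the 7 genes, nor did edgeR with the block, an alternative added after the data were seen.

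SNAI1, TWIST1 and ESRP2 had between 133 and 303 reads per library, so that counting error is part of their spread, and depth leaves ESRP1, GRHL2, OVOL2, CDH1 and EPCAM without a usable fold change. The interval of each gene is set by 3 libraries per group.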
